A study of Mus musculus with 30 samples.

Results

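The alveolar type 2 surfactant genes are 9 genes chosen by name, Sftpc, Sftpb, Sftpa1, Sftpd, Abca3, Lamp3, Napsa, Slc34a2 and Lpcat1, out of 21938 protein-coding genes annotated on the main mouse chromosomes. H3K27ac, the acetylated form of lysine 27 of histone H3 that marks active promoters and enhancers, was mapped by chromatin immunoprecipitation and sequencing in CK1750 and Tnm2 mouse lung adenocarcinoma cells. Each line was cultured in DMEM with fetal bovine serum, with either the solvent DMSO or 1 µM UNC0638, an inhibitor of the H3K9 methyltransferases G9a and Glp. Of the 30 samples of the series, 9 were H3K27ac samples, namely 3 DMSO and 2 UNC0638 samples of CK1750, and 2 DMSO and 2 UNC0638 samples of Tnm2. Of the 3 CK1750 DMSO samples, 2 are sequencing runs of the same replicate, and both CK1750 UNC0638 samples carry the same replicate number, so the groups hold 2, 1, 2 and 2 replicate numbers, fewer than the study's methods state. The samples of a group share 1 merged peak list by their labels, so 4 lists were compared. Each line stands for a single tumour-derived culture, and CK1750 was used by the study as a line resembling tumour-propagating cells.

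Alveolar type 2 cells are the lung epithelial cells that make, store and secrete surfactant, the film of phospholipid and protein that keeps air sacs from collapsing. The hydrophobic proteins encoded by Sftpb and Sftpc act in the lipid film, and the collectins encoded by Sftpa1 and Sftpd bind microbes. Lipid is made and loaded with the help of Lpcat1, an acyltransferase of phosphatidylcholine synthesis, and Abca3, the lipid transporter of the lamellar body. Lamp3 is a lamellar body membrane protein, Napsa is an aspartic protease that processes surfactant proteins, and Slc34a2 is the sodium-phosphate cotransporter of these cells. Lung adenocarcinoma often retains part of this programme, and the comparison asks which of the genes carried H3K27ac in each line and treatment.

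The lists held 27367 (DMSO) and 24601 (UNC0638) peaks for CK1750, and 30641 (DMSO) and 18794 (UNC0638) peaks for Tnm2. Where 4 values stand in a row below, they follow this order of lists. No sample-level values accompany a merged list, so no difference below has a replicate check or a test, and the read depth is unknown. A peak carries a score, -10 log10 of the caller's P value, and every listed score was at least 50. Scores rank peaks within a list and were not compared between lists. For the main peaks the score is followed by its percentile, the share of peaks of the same list with a lower score. A percentile depends on how many weak peaks a list holds, so differences of percentile between lists of unequal length are not read as changes in the mark. A missing peak means a signal under the cutoff, and fewer cells with the mark cannot be told apart from less of the mark in each cell. A promoter peak is a peak within 2.5 kb of any annotated start site of the gene (GENCODE, mm10), and a neighbouring peak lies in the gene or within 50 kb of it.

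The promoter sequences of 5 of the genes are shown because they fall into 2 classes, CpG-rich and CpG-poor. Over all genes with a promoter sequence, the classes differed in the share with a promoter peak. The part of the class at the surfactant genes was not tested. The promoters shown are RefSeq sequences of build GRCm38.p6, 250 bases before to 50 bases after a start site. Capitals mark matches, on either strand, to the motifs of 5 factors. NKX2-1 was searched as CAAGTG. The FOXA motif was searched as TGTTTAC and, separately, as TGTTTGC. C/EBP was searched as TTGCNNAA. GATA was searched as AGATAA, and the AP-1 motif as TGAGTCA. In the sequences printed no match overlapped another.
Abca3 promoter, chr17:24351773-24352072, plus strand: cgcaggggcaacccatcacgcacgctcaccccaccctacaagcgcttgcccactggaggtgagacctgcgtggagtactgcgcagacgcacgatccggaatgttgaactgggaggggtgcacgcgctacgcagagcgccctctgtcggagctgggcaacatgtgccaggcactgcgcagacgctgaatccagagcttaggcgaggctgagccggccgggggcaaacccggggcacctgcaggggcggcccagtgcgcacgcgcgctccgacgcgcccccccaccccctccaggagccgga
Lpcat1 promoter, chr13:73466981-73467280, plus strand: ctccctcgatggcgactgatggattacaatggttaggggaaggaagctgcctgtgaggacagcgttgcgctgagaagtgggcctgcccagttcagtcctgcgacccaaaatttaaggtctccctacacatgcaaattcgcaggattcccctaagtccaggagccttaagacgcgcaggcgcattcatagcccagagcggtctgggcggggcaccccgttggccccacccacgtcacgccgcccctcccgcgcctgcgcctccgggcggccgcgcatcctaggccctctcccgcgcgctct
Slc34a2 promoter, chr5:53049103-53049402, plus strand: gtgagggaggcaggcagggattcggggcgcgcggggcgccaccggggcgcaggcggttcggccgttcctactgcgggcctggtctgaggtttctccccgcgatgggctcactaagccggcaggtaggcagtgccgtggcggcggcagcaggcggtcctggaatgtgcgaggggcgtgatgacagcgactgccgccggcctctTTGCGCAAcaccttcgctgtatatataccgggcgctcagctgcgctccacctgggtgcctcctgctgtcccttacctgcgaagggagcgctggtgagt
Sftpb promoter, chr6:72304360-72304659, plus strand: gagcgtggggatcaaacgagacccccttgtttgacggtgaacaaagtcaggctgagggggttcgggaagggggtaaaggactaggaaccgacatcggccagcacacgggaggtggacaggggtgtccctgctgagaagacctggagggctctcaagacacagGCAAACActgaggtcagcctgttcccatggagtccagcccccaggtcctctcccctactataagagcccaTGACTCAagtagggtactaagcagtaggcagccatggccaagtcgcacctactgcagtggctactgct
Sftpa1 promoter, chr14:41131538-41131837, plus strand: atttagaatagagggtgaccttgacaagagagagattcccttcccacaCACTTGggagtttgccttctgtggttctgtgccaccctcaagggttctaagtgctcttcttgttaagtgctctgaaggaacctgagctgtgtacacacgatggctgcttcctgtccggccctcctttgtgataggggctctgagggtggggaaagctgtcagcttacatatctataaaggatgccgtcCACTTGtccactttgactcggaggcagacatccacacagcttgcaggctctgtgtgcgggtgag

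A promoter was called CpG-rich when the ratio of observed to expected CpG was at least 0.6 and GC content at least 50%. Abca3 had 29 CpGs with a ratio of 0.798, Lpcat1 had 25 with 0.823, and Slc34a2 had 30 with 0.862. The Sftpb promoter had 8 CpGs with a ratio of 0.316, Sftpa1 had 5 with 0.248 and Lamp3 had 0, at a GC content of 43.7%. The 3 lipid and transport genes were thus CpG-rich and the other 3 of the 6 matched genes were not. Over all matched genes, 79.7%, 78.7%, 77.5% and 66.5% of 7836 genes with a CpG-rich promoter had a promoter peak in the 4 lists. Of 8681 genes with another promoter, 27.1%, 26.2%, 27.7% and 21.7% had one. The Slc34a2 sequence belongs to an internal start site at 53049353, not to the outermost start at 53038081.

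The matches were few. Sftpb held GCAAACA, the reverse complement of a FOXA motif, and TGACTCA, that of the AP-1 motif, which occur in 5.07% and 5.2% of 32841 promoters. Sftpa1 held 2 copies of CACTTG, the reverse complement of the NKX2-1 motif, which 13.6% of promoters hold. Slc34a2 held a C/EBP match, present in 10.8% of promoters, and Lamp3 held TGTTTAC, present in 3.65%. Abca3 and Lpcat1 held none of the motifs, and none of the 6 promoters held AGATAA, present in 11.2% of all. A match is a run of letters and not a measured binding site.

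For 2 peaks away from promoters, the central 300 bases of the stretch common to all lists with the peak are shown for the same motifs. They are the highest-scoring peak near Sftpb and the peak within the Slc34a2 gene, which was listed with DMSO alone. The wider Tnm2 peak at Slc34a2 has its own midpoint outside the printed bases.
Sftpb peak centre, chr6:72293261-72293560, plus strand: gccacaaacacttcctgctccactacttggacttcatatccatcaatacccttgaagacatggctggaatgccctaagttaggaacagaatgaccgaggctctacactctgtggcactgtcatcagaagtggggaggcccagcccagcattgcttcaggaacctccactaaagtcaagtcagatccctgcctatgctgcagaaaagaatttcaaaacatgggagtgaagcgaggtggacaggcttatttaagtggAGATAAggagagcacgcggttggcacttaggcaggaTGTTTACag
Slc34a2 peak centre, chr5:53042288-53042587, plus strand: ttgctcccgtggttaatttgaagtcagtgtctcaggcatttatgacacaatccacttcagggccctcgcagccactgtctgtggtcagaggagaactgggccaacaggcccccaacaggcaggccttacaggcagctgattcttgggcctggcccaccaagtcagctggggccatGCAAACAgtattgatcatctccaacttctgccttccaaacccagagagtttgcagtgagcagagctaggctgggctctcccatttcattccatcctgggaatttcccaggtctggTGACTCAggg

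The Sftpb peak centre held AGATAA and TGTTTAC, which 9.23% and 3.54% of 27355 peak centres of the CK1750 DMSO list hold. The Slc34a2 peak centre held GCAAACA and TGACTCA, the pair also present in the Sftpb promoter, and these occur in 5.06% and 7.47% of peak centres. Both stretches were CpG-poor, with 4 and 2 CpGs.

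Of the 9 genes, 3 had a promoter peak in each list. In CK1750 with either treatment and in Tnm2 with DMSO these were Sftpc, Abca3 and Lpcat1, and in Tnm2 with UNC0638 they were Sftpc, Abca3 and Sftpb. Among all protein-coding genes the share with a promoter peak was 50% (DMSO, 10977 genes) and 49.1% (UNC0638) in CK1750, and 49.4% (DMSO) and 41.3% (UNC0638) in Tnm2. Sftpc and Abca3 had one in all 4 lists, as 39.3% of genes did. Sftpc was counted only through a retained-intron transcript, and with protein-coding start sites alone 2 of the 9 genes remained in each list.

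Neighbouring peaks were found at 6, 5, 6 and 4 of the 9 genes in the 4 lists. The background shares of all protein-coding genes were 74.3%, 72.7%, 74.3% and 68.7%. Slc34a2 was without a neighbouring peak in both UNC0638 lists, and Lpcat1 in that of Tnm2. Sftpa1, Sftpd and Lamp3 had no neighbouring peak in any list, a state shared by 22.4% of protein-coding genes.

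**Figure D1:**
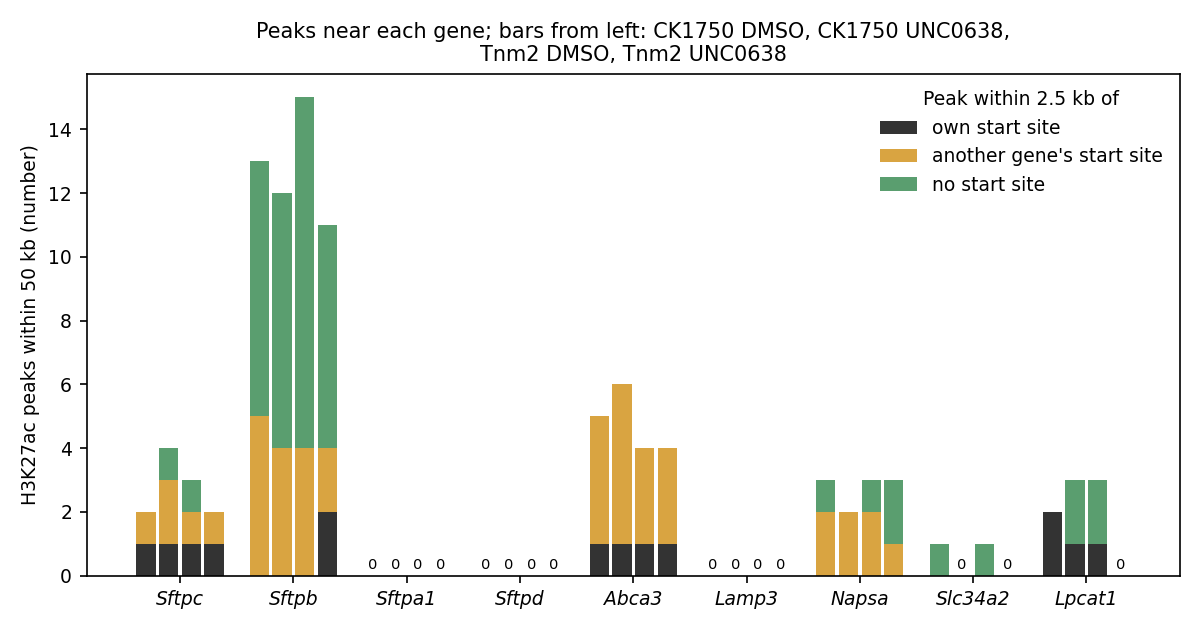
Number of H3K27ac peaks in each gene or within 50 kb of it (vertical axis), with 4 bars per gene for the 4 lists, split by whether the peak lay within 2.5 kb of the gene's own start site, of another gene's start site, or of none. Sftpb stands highest with 11 to 15 peaks, and Sftpa1, Sftpd and Lamp3 are at 0 in every list.

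Summed over the 9 genes, the 4 lists held 26, 27, 29 and 20 neighbouring peaks. Of these, 4, 3, 3 and 4 lay at the gene's own start site. Peaks at another gene's start site numbered 12, 13, 10 and 7, and peaks at no start site 10, 11, 16 and 9. Sftpb alone held 13, 12, 15 and 11 of the peaks, so the sums describe that gene more than the group. The mean per protein-coding gene was 3.28, 2.98, 3.52 and 2.28 peaks, and the sums over 9 genes were close to that background. Joined across lists, the peaks formed 38 regions, of which 13 were present in 4 lists, 8 in 3, 5 in 2 and 12 in 1.

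Sftpb, which encodes surfactant protein B (chr6:72304610-72314371, plus strand), had by far the most peaks of the 9 genes, with 13, 12, 15 and 11 in the 4 lists. The median protein-coding gene had 2 in each list, and between 97.8% and 98.5% of genes had fewer than Sftpb. The peaks covered 15.5, 18.6, 20.7 and 17.2 kb. Of these, 7, 6, 10 and 7 lay upstream of the gene, which is 6 of 12 in CK1750 with UNC0638 and more than that share in the other lists.

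The strongest upstream region, chr6:72291951-72294786, was intergenic, with its near edge about 10 kb before the Sftpb start. Its peak scored 2250.85 (percentile 95.9) in CK1750 with DMSO and 2186.88 (96.3) in CK1750 with UNC0638. In Tnm2 it scored 2329.19 (98.6) with DMSO and 1031.17 (97.8) with UNC0638. By rank it was peak 1120 of 27367, 906 of 24601, 437 of 30641 and 407 of 18794. The region thus kept a high rank in both lines and under both treatments.

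Where a region held several peaks, the highest-scoring is given. Another upstream region, chr6:72276443-72279877, scored 611.99 (percentile 80.2) and 1117.54 (89.2) in CK1750 and 1692.59 (97.0) and 452.91 (89.5) in Tnm2, with DMSO given before UNC0638. Next to it, chr6:72270853-72274177, scored 628.74 (80.6), 1018.64 (87.7), 1458.37 (96.0) and 555.04 (92.4) in the same order. Both regions were thus listed in both lines and under both treatments, with percentiles of at least 80.2. The region chr6:72295552-72297723 stood between percentiles 63.1 and 81.0. Sftpb was the nearest protein-coding start site for each of these 4 regions, and assignment by distance does not show that a region acts on the gene.

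The 50 kb upstream of Sftpb held 7, 6, 10 and 7 peaks covering 10.0, 11.9, 15.4 and 12.5 kb. As much covered sequence upstream of the start was found for 0.737%, 0.7%, 0.192% and 0.197% of 21853 genes. As many upstream peaks were found for 2.28%, 3.13%, 0.622% and 0.851%. Downstream, peaks lay at the start sites of Usp39 and 0610030E20Rik in all 4 lists. A further region between the genes, chr6:72315156-72316695, scored 142.28, 335.22, 334.52 and 102.97 (percentiles 48.0, 66.2, 74.0 and 43.4).

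At the Sftpb start itself no peak was listed in 3 of the 4 lists, where the nearest peak lay 7.83 kb (CK1750 with DMSO), 2.72 kb (CK1750 with UNC0638) and 6.89 kb (Tnm2 with DMSO) from a start site. Tnm2 with UNC0638 had 2 weak promoter peaks. One, chr6:72303792-72304482, scored 72.58 (percentile 25.2), ended 0.128 kb before the start and overlapped the promoter printed above. The other, chr6:72306557-72307516, scored 77.4 (percentile 29.0) and lay in an intron, 0.151 kb from a retained-intron start site. Both were under a score of 100, at which the Sftpb promoter would be without a peak in every list.

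**Figure D2:**
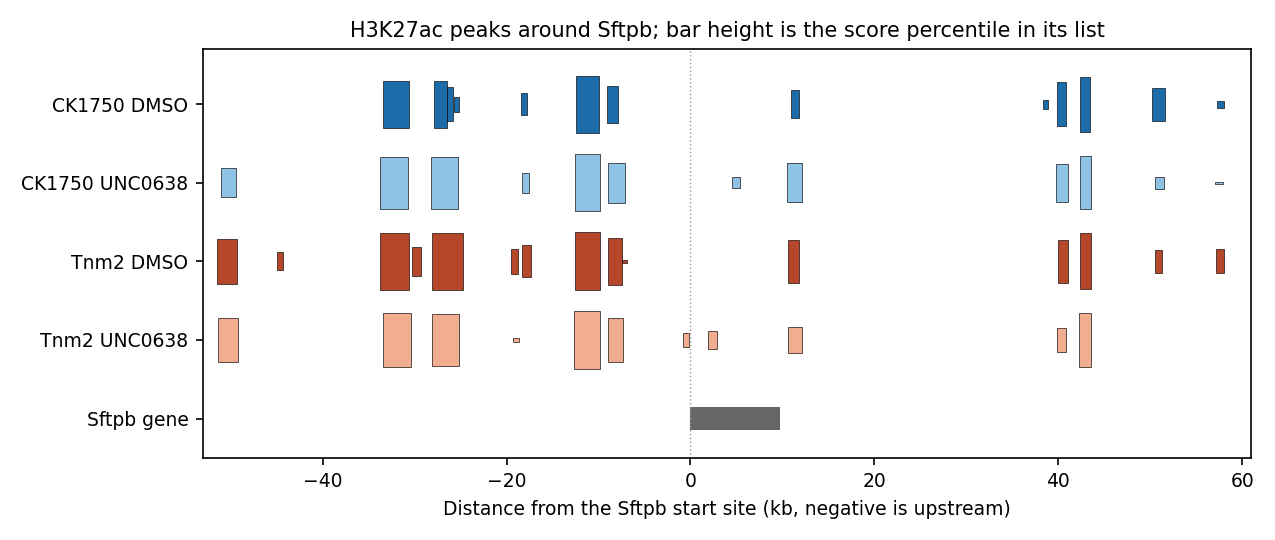
H3K27ac peaks around Sftpb in the 4 lists (rows), placed by distance in kb from the start site, with the gene as a grey bar and bar height scaled to the score percentile within the list. The tall bars about 10 kb upstream are present in every row, and peaks at the start appear only in the Tnm2 UNC0638 row.

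Sftpc, which encodes surfactant protein C (chr14:70520949-70524081, minus strand), had a promoter peak by the 2.5 kb rule in every list, but the peak lay past the 3′ end of the gene. In CK1750 it was chr14:70519718-70520841 with DMSO (score 386.42, percentile 71.8) and chr14:70519691-70520676 with UNC0638 (214.4, percentile 54.9). In Tnm2 it was chr14:70519669-70520766 with DMSO (329.72, percentile 73.7) and chr14:70519478-70520747 with UNC0638 (147.6, percentile 59.0). The peak covered start sites of Bmp1, a neighbouring metalloprotease gene. It lay 1.33 to 1.5 kb from the retained-intron start of Sftpc at 70522176 and 3.24 to 3.4 kb from the protein-coding start at 70524081. No list held a peak within 2.5 kb of the protein-coding start of Sftpc.

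The remaining Sftpc neighbours were weak. A peak at the Hr start site, about 30 kb upstream, was listed in CK1750 with DMSO (102.41), CK1750 with UNC0638 (68.58) and Tnm2 with UNC0638 (80.17). Peaks at Reep4 and in the intergenic stretch 16.9 kb upstream were listed in CK1750 with UNC0638 (92.03 and 94.98) and in Tnm2 with DMSO (116.62 and 84.59). The number of Sftpc neighbours was therefore 2 with DMSO and 4 with UNC0638 in CK1750, and 3 and 2 in Tnm2.

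Sftpa1 (chr14:41131782-41136452, plus strand) and Sftpd (chr14:41172214-41185149, minus strand), the collectin genes, lie close together, and their 50 kb windows overlap. The peak nearest to Sftpa1 was 77.1 kb away with DMSO in both lines, 106 kb away in CK1750 with UNC0638 and 77.6 kb away in Tnm2 with UNC0638. For Sftpd the distances were 118, 147, 118 and 118 kb in the 4 lists. Across the 4 lists together, both genes lay in a stretch of 860 kb on chromosome 14 without any peak. It holds 19 protein-coding genes, among them Mbl1, another collectin gene, and Mat1a, but most of the 19 carry Gm names, given to predicted genes. Between 19.6% and 25.9% of protein-coding genes lay as far from a peak as Sftpa1 did, so this distance is not rare in these lists.

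Abca3, the lamellar body lipid transporter (chr17:24351950-24410201, plus strand), had a promoter peak over its own start sites in all 4 lists. In CK1750 the peak scored 617.3 (percentile 80.3) with DMSO and 475.94 (73.8) with UNC0638. In Tnm2 it scored 624.91 (86.0) with DMSO and 113.84 (47.9) with UNC0638. The peak was 1322, 1173, 2187 and 1378 bp wide. Set against all genes with a promoter peak, Abca3 stood at percentiles 55.6, 49.6, 65.9 and 27.5. The start site of Abca17, on the opposite strand, lay 0.239 to 0.834 kb from the peak, so the peak counts as a promoter peak of both genes. Other neighbours were the start sites of Rnps1, Eci1 and E4f1, downstream of the gene and acetylated in all 4 lists.

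Lpcat1, the phosphatidylcholine acyltransferase gene (chr13:73467197-73516422, plus strand), had a peak just inside its start in 3 lists. The peak was chr13:73467204-73468479 in CK1750 with DMSO (score 271.02, percentile 64.2) and chr13:73467203-73468070 in CK1750 with UNC0638 (152.9, percentile 45.3). In Tnm2 with DMSO it was chr13:73467258-73467862 (116.37, percentile 43.3), and in Tnm2 with UNC0638 none was listed. In that list the nearest peak was 86.7 kb from the gene, and the weak intronic peaks of Tnm2 with DMSO (50.76 and 66.93) were also gone. CK1750 with UNC0638 had 2 adjacent intronic peaks (105.16 and 98.2) that the DMSO list lacked, and the DMSO list had another weak intronic peak (56.39).

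Lpcat1 was the only one of the 9 genes to lose its promoter peak, 1 of 3 in Tnm2 and 0 of 3 in CK1750. Over all genes with a DMSO promoter peak, 17.7% lost it in Tnm2 and 4.85% in CK1750. The Lpcat1 peak scored 116.37 in Tnm2 with DMSO, and over all genes the share lost differed by score. Of 1887 Tnm2 genes whose highest promoter score with DMSO was from 100 to under 200, 40.3% had no promoter peak with UNC0638, against 7.54% of genes from 200 to under 500. Depth of the lists was not given, and the parts of depth, peak score and treatment in the loss of the Lpcat1 peak were not tested.

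**Figure D3:**
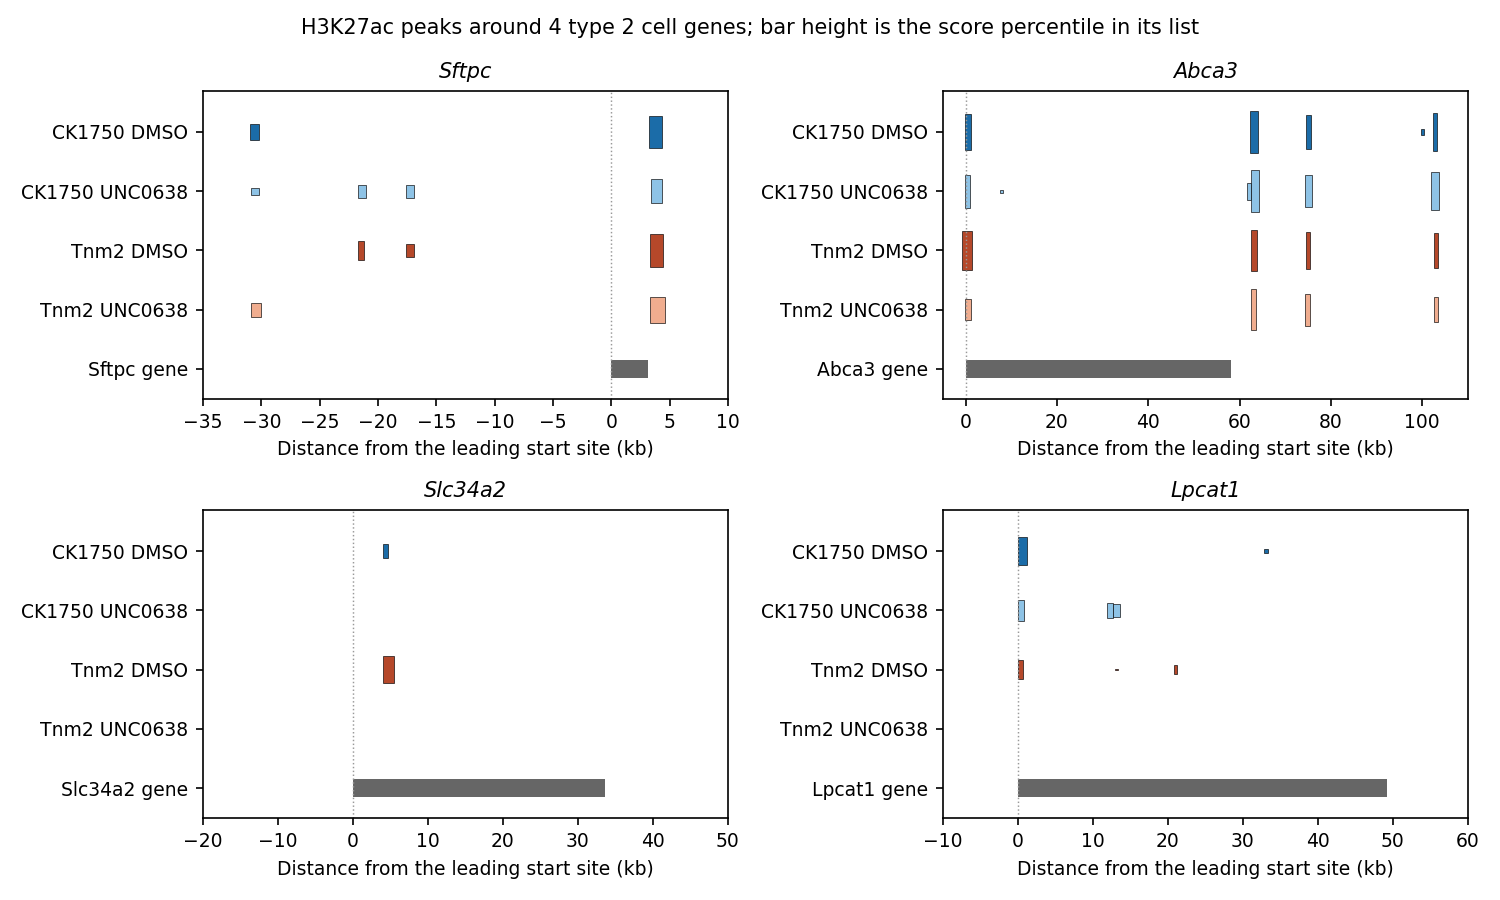
H3K27ac peaks around Sftpc, Abca3, Slc34a2 and Lpcat1 in the 4 lists (rows of each panel), placed by distance in kb from the leading start site, with the gene as a grey bar and bar height scaled to the score percentile within the list. The Sftpc peak lies beyond the end of the gene, Slc34a2 has peaks in the DMSO rows alone, and Lpcat1 has none in the Tnm2 UNC0638 row.

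Slc34a2, the phosphate transporter gene (chr5:53038081-53071664, plus strand), had a single neighbouring peak with DMSO in each line and none with UNC0638. In CK1750 the DMSO peak was chr5:53042125-53042749 (score 88.76, percentile 32.7, 625 bp wide). In Tnm2 it was chr5:53042126-53043598 (195.88, percentile 60.7, 1473 bp wide). Both lie in an intron, 4.04 kb from the outermost start site, and began 1 bp apart. With UNC0638 the nearest peak was 127 kb from the gene in each line. The CpG-rich internal promoter printed above had no peak in any list.

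Slc34a2 and Lpcat1 were the genes that lost every neighbouring peak, Slc34a2 in both lines and Lpcat1 in Tnm2. The background was 3.36% of genes in CK1750 and 8.12% in Tnm2. Of 15675 genes with a neighbouring peak with DMSO in both lines, 145 (0.925%) had none with UNC0638 in either, Slc34a2 among them. These genes had peaks of any number and score, and Slc34a2 had 1 with DMSO, of score 88.76 in CK1750 and 195.88 in Tnm2. For promoter peaks, 36.0% of CK1750 genes from 50 to under 100 and 40.3% of Tnm2 genes from 100 to under 200 lost them. The share for single neighbouring peaks of such scores was not computed. When the lists were cut to equal numbers of their highest-scoring peaks, the DMSO peaks at Slc34a2 remained in both lines. Such a cut only removes peaks, so it could not alter the absence with UNC0638. The CK1750 DMSO peak ranked 18410, close to the cut at 18794. Under a minimum score of 100, the CK1750 peak was no longer counted with DMSO, which leaves the loss in Tnm2.

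Napsa, the surfactant protease gene (chr7:44572380-44586862, plus strand), had no promoter peak in any list, and its nearest peak was 17.6, 17.6, 17.7 and 17.0 kb away. In all 4 lists a peak lay at start sites of Nr1h2, a nuclear receptor gene, with scores of 605.21, 932.66, 508.72 and 199.96 (percentiles 80.0, 86.2, 82.3 and 69.4). Mybpc2 had a peak at its start in 3 lists, with none in Tnm2 with UNC0638. These peaks lay at other genes, and acetylation at the Napsa start was not detected at the depth of these lists.

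Lamp3, the lamellar body membrane protein gene (chr16:19653378-19706375, minus strand), was the farthest from any peak, 391 kb in each list. Only 7.02% to 9.15% of protein-coding genes lay as far. The stretch without peaks across the 4 lists spanned 1126 kb on chromosome 16 and holds 11 protein-coding genes, 8 of them olfactory receptor genes. B3gnt5 and Klhl6 were the others besides Lamp3.

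Gains of a promoter peak with UNC0638 numbered 0 of 6 genes in CK1750 and 1 of 6 in Tnm2, the latter being Sftpb with its weak peaks. Of all genes without a promoter peak with DMSO, 3.03% gained one in CK1750 and 1.18% in Tnm2. With DMSO the lines did not differ in which of the 9 genes had a promoter peak, where 6.87% of all genes did. With UNC0638 they differed at 2, Sftpb and Lpcat1, against 10.5% of all genes. The Sftpb peaks are close to the cutoff of 50 and the Lpcat1 peak of CK1750 with UNC0638 is not, at 152.9. Without replicates these counts cannot be set apart from the background.

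**Figure D4:**
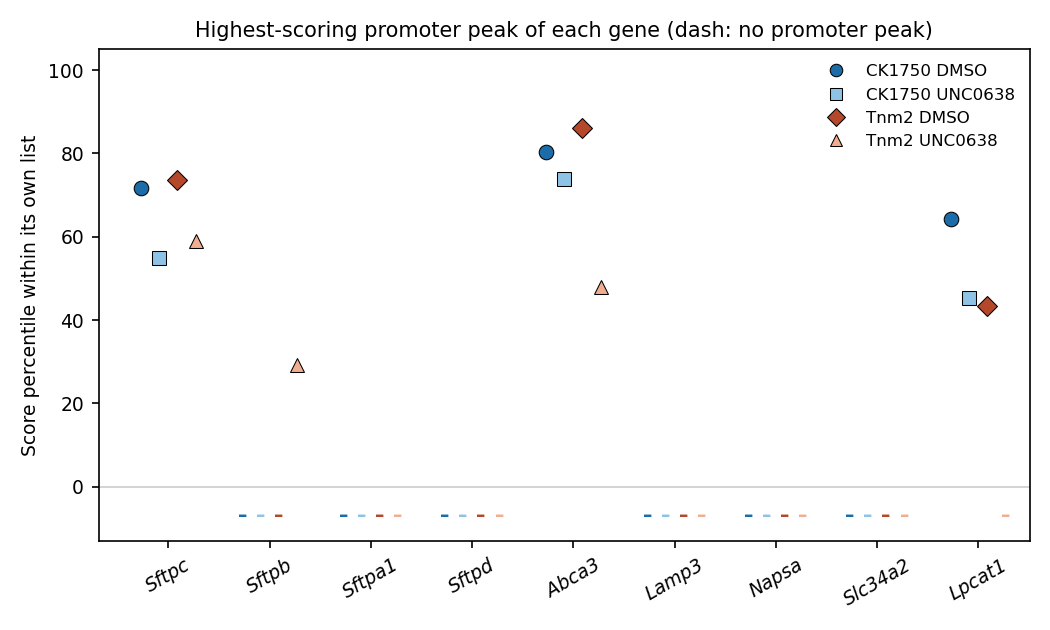
Score percentile, within its own list, of the highest-scoring promoter peak of each gene (vertical axis), with a symbol for each of the 4 lists and a dash under the axis where no promoter peak was listed. Sftpc and Abca3 have 4 symbols, Lpcat1 has 3, Sftpb has 1 at a low percentile, and the other 5 genes have dashes in every list. The Sftpc peak covers start sites of Bmp1 and is counted only through a retained-intron start site of Sftpc.

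From DMSO to UNC0638, the number of neighbouring peaks summed over the 9 genes went from 26 to 27 in CK1750 and from 29 to 20 in Tnm2. With every list cut to its 18794 highest-scoring peaks, it went from 21 to 22 in CK1750 and from 22 to 20 in Tnm2. At scores of 100 or more it fell in both lines, from 19 to 18 and from 23 to 13. Over all protein-coding genes, 30.9% had fewer neighbouring peaks with UNC0638 in CK1750 and 14.9% had more, while in Tnm2 51.8% had fewer and 3.49% had more. Of the 6 genes with any peak, Sftpb went from 13 to 12 and from 15 to 11, and Abca3 from 5 to 6 and from 4 to 4. Napsa went from 3 to 2 in CK1750 and stayed at 3 in Tnm2.

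Genes around the surfactant pathway were read in the same way. All 8 genes of a list of surfactant gene regulators had a promoter peak in every list, as 39.3% of all protein-coding genes did. In the 4 lists taken singly, 50%, 49.1%, 49.4% and 41.3% of all protein-coding genes had one, the background for the counts below. The genes were chosen with earlier results of these data known, and the CpG class of their promoters was not compared. Nkx2-1, the lung lineage factor, scored 1267.68, 1037.16, 1516.92 and 972.47 (percentiles 90.6, 88.0, 96.3 and 97.5), and Cebpa scored 253.15, 169.56, 235.66 and 140.21 (percentiles 62.6, 48.3, 65.6 and 57.1). Of 7 genes of surfactant processing and the lamellar body, 7, 6, 7 and 7 had a promoter peak, the missing one being Rab38 in CK1750 with UNC0638. Of 9 genes of phosphatidylcholine and fatty acid synthesis, 9, 9, 9 and 8 did, the missing one being Acly, which makes acetyl-CoA for lipid synthesis, in Tnm2 with UNC0638. Many of these genes are used by most cells, so their promoter peaks do not mark type 2 cells.

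Markers that are more particular to the cell type gave lower counts, and the parts of cell type and promoter class in this were not tested. Of 10 other type 2 cell markers, 1, 1, 4 and 2 had a promoter peak, and Lyz1, Lyz2, Chil1, Hc, Egfl6 and S100g had none in any list. Cldn18, a lung tight junction gene, had a peak in Tnm2 alone (958.26 with DMSO and 491.69 with UNC0638, percentiles 92.1 and 90.8), as did Il33 (200.18 and 89.83, percentiles 61.2 and 36.9). Muc1 scored 320.56 and 171.76 in CK1750 and 73.79 in Tnm2 with DMSO (percentiles 68.0, 48.7 and 24.0). The lines therefore differed at Cldn18 and Il33 under both treatments and at Muc1 with UNC0638. With DMSO they also differed at Cxcl15, by a peak of 51.32 in Tnm2. Over all protein-coding genes, 6.87% differed with DMSO and 10.5% with UNC0638. Of the surfactant genes, Abca3 and Lpcat1 had a promoter peak in each line with DMSO. With UNC0638 the lines differed at Sftpb and Lpcat1. Sftpc was counted in each line under both treatments, but only through a retained-intron start site.

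Markers of other cells were set beside them. Of 8 type 1 cell markers, 3 had a promoter peak in each list, namely Aqp5, Emp2 and Cav1. Aqp5 scored 1596.07, 1587.39, 307.09 and 333.64 (percentiles 93.0, 93.6, 72.1 and 83.1). Emp2 stood at percentiles 83.7, 83.0, 79.2 and 70.4, and Cav1 at 72.5, 67.0, 44.9 and 37.8. Ager, Hopx, Pdpn, Rtkn2 and Akap5 had none in any list. Of 5 club and ciliated cell markers, 1, 0, 1 and 0 did, Scgb1a1 scoring 53.02 and 57.88 in the DMSO lists. Of 7 epithelial markers, 5, 4, 4 and 4 did, with Cdh1, Krt8, Krt18 and Krt19 in all 4 lists and Epcam and Cldn4 in none. Of 10 immune, endothelial and fibroblast markers, 1, 1, 2 and 1 did, with Col1a1 at 102.58, 51.89 and 96.78 in 3 lists (percentiles 37.9, 1.9 and 36.1) and Pecam1 at 116.3 and 230.74 in Tnm2 (percentiles 43.3 and 73.6). Set beside the labelled cell type, lung adenocarcinoma, the promoters of Nkx2-1, Cdh1, Krt8, Krt18, Krt19 and Abca3 had a peak in all 4 lists. Those of Epcam, Cldn4, Sftpa1, Sftpd, Lamp3, Napsa and Slc34a2 had none in any list. Lpcat1 lacked one in Tnm2 with UNC0638, and Sftpb had only weak ones, in that list alone. No list held a peak within 2.5 kb of the protein-coding start of Sftpc.

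**Figure D5:**
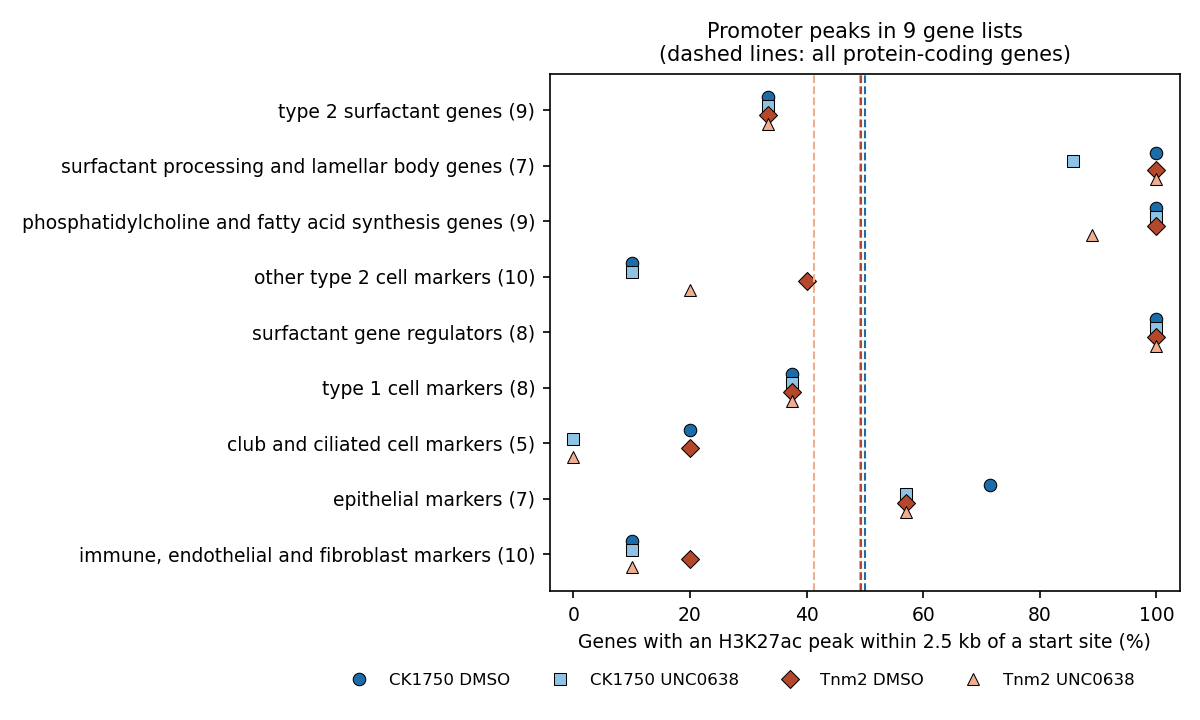
Percentage of the genes of each of 9 lists with an H3K27ac promoter peak (horizontal axis), with a symbol for each of the 4 peak lists and the number of genes in brackets; dashed lines give the same percentage over all protein-coding genes. The surfactant genes lie left of the dashed lines with 3 of 9 in each list, and the regulators lie at the right edge with 8 of 8. Of the surfactant genes, Sftpc is counted only through a retained-intron start site.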

How the data were processed

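H3K27ac peak lists of CK1750 and Tnm2 cells with DMSO or UNC0638 were analysed, and the 21 H3K9me2 and input samples were not used here. Samples were grouped by line and treatment as labelled. Reads had been mapped to mm10 with Bowtie2 and handled with SAMtools, and peaks called with MACS 1.4.2 at a P cutoff of 1e-05, per the study's methods and the submitters' processing notes. The deposited score of each peak is -10 log10 of the caller's P value, and the cutoff equals a score of 50. Merging before peak calling was inferred from the labels, and the libraries in each list and the control used are not given in the sources used here. A score grows with depth, so weak peaks can enter or leave a list through depth alone. Depth is unknown, and no interval was given.

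Start sites came from GENCODE release M 21. A peak was assigned when it overlapped a window by at least 1 bp, and regions were joined peaks of the 4 lists. All 9 genes are named, with other genes only where a neighbouring peak lay at their start site or as examples of the lists. The genes and lists were chosen with earlier results of these data known. RefSeq promoters matched 6 of the 9 genes (GRCm38.p6, the same assembly as mm10), and Sftpc, Sftpd and Napsa are named only. Motifs were searched by exact letters on both strands. Alternatives were other windows, a score of at least 100, equal numbers of peaks, a larger overlap, joined neighbours and protein-coding start sites. The assignment was tested on simulated data. Python 3.11.15, numpy 2.4.6, pandas 2.3.3 and matplotlib 3.10.9 were used.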

Additional observations from a re-analysis of the deposited data

Results flagged for a closer look

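The number of H3K27ac peaks in or within 50 kb of a gene, UNC0638 minus DMSO, had opposite signs in the lines for Sftpc (2 in CK1750 and -1 in Tnm2) and for Lpcat1 (1 and -3). The sum over the 9 genes did so too (1 and -9), with values of 1 and -2 in lists of equal length, but at scores of 100 or more it was negative in both lines (-1 and -10). With 1 merged list per group, these differences between the lines were not tested, and the Tnm2 UNC0638 list also held the fewest peaks of the 4, 18794.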

How the results depend on the processing

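No paired analysis was possible because each group has 1 merged list and no result comes from a test, and for the same reason no replicate could be left out. Of 110 alternative values of 20 results, 90 stayed within 1.5 times the reported value, 19 moved and 1 reversed. The 90 include promoter counts that fell from 3 genes to 2 in every list. This happened with a 1 kb window around start sites and with protein-coding start sites alone, as Sftpc was no longer counted. With a 5 kb window around start sites, promoter peaks lost with UNC0638 were 1 in CK1750 (Slc34a2) and 2 in Tnm2 (Slc34a2 and Lpcat1), CK1750 gained 1 (Sftpb), and the lines differed at 1 gene with UNC0638. At a score of at least 100, Tnm2 gained 0, the lines differed at 1 gene with UNC0638, and Tnm2 with UNC0638 had 13 neighbouring peaks. Peak numbers scaled with the window by construction, 9, 12, 11 and 8 within 10 kb and 47, 48, 59 and 42 within 100 kb. The summed change in CK1750 was 3 within 10 kb and reversed to -1 at a score of at least 100. In Tnm2 it was -3 within 10 kb, -17 within 100 kb and -2 with 18794 peaks in every list, against the reported -9. Apart from the windows and list lengths set here, the cause was not tested. A list cut at a score of 50 and of unknown depth limits every statement on a weak peak, Lpcat1, Slc34a2 and the Sftpb start included.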
